A study of Homo sapiens with 4 samples.

Results

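The 7 genes that encode the CDK inhibitors were followed by RNA-seq in MDA-MB-231 cells given MGH-CP1 or vehicle. CDKN1A, CDKN1B, CDKN1C, CDKN2A, CDKN2B, CDKN2C and CDKN2D were found by their symbols, 1 row each, among the 48162 genes of the deposited expression table, and 5 of the 7 were high enough to be tested, as were 12080 genes of the whole table. MDA-MB-231 is an established human breast cancer line with a mesenchymal-like phenotype and no estrogen receptor. MGH-CP1 is a small molecule that binds the lipid pocket of the TEAD transcription factors and blocks their palmitoylation, and thereby the output of TEAD with its co-activators YAP and TAZ. Cells of the vehicle control group (2 libraries) received vehicle, and cells of the MGH-CP1 group (2 libraries) received the compound for 24 h, at 10 µM according to the sample labels, whereas the methods of the study give the same figure in mM. Both groups are the same line in the same medium, with no genetic change between them. Nothing in the labels says that the libraries came from separate cultures, so each p value measures the spread between these libraries, which may be technical.

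The CDK inhibitors are small proteins that hold back the cyclin-dependent kinases of the cell cycle. The CIP/KIP family, p21 (CDKN1A), p27 (CDKN1B) and p57 (CDKN1C), binds cyclin-CDK complexes and blocks above all CDK2 with cyclin E or cyclin A. The INK4 family, p16 (CDKN2A), p15 (CDKN2B), p18 (CDKN2C) and p19 (CDKN2D), binds CDK4 and CDK6 and keeps cyclin D away from them. With a cyclin bound and no inhibitor, CDK4, CDK6 and CDK2 phosphorylate RB1 and release the E2F factors, which switch on genes of DNA replication. p27 is induced by FOXO factors and destroyed by the ligase subunit SKP2, and CDKN2A is among the genes most often deleted in cancer. Much of the control of p21 and p27 acts on the protein, which was not measured here.

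Expression was given as FPKM, the fragments of a gene scaled to its length and to the library's total, so levels can be compared between genes. The libraries held 17577930 to 17997221 fragments on the listed genes in MGH-CP1 and 25455533 to 25508824 in vehicle control, as recovered from the FPKM values. Mitochondrially encoded genes took 0.447% and 0.418% of the fragments in vehicle control and 1.57% and 1.53% in MGH-CP1. Of the markers of the line, VIM, CD44, CAV1, AXL and MSN had a mean FPKM of 210.3 to 338, ESR1, PGR and CDH1 were below 0.5, and SPARC, set as high, was at 0.0948. Of the other genes set as low or absent, ERBB3 was at 1.44 and GATA3 at 4.94 FPKM, whereas EPCAM (14.0 FPKM) and KRT8 (317 FPKM) were not low.

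The promoters of CDKN1A, the CDK inhibitor gene with the highest level, and of CDKN2C, the only one with a called fall, are shown because MGH-CP1 acts on a DNA-binding factor. RefSeq promoter windows on GRCh38.p14, from 250 bases before to 50 bases after a transcript start, were at hand for 6 of the 7 genes, in 9 windows. The windows were searched on both strands for GGAATG, the core of the TEAD motif, TTTNNCGC for E2F, GTAAACA for FOXO and TGANTCA for AP-1. The 250 bases before the start are printed 5′ to 3′, with GGAATG in capitals, for the single window of CDKN1A (chr6:36678464-36678713, plus strand) and for the 2 of the 3 windows of CDKN2C that hold it, at chr1:50968456-50968705 and chr1:50969995-50970244, both on the plus strand.
CDKN1A: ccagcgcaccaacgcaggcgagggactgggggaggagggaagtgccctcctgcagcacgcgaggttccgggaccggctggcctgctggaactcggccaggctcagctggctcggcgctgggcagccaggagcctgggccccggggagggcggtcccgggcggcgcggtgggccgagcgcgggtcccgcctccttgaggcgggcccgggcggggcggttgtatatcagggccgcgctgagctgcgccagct
CDKN2C, middle start: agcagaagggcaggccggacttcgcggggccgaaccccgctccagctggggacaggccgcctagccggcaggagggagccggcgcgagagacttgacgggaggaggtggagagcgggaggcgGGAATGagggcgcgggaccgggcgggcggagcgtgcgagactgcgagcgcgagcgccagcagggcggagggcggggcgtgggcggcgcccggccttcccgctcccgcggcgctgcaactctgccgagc
CDKN2C, last start: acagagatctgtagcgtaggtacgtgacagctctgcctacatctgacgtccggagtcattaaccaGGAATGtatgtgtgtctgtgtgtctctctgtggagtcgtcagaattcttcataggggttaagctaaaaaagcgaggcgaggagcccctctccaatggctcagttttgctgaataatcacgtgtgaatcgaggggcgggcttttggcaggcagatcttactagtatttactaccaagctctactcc
GGAATG begins 128 bases before the middle CDKN2C start and 185 bases before the last, the first start of CDKN2C having none of the motifs, and CDKN2B holds it 199 bases before its start on the reverse strand. It was found in no other window of these genes, CDKN1A included, and in 14.0% of all 35116 windows of the table. That share is per window, and a gene with 3 windows, like CDKN2C, has more room for a match. Whether a match goes with a change of level was not tested. TTTNNCGC was found only in CDKN2D, 216 bases before the start (6.89% of all windows). GTAAACA (3.42% of all windows) and TGANTCA (7.71%) were found in none of the 9 windows. A match is a string of letters and no measured binding site, and enhancers lie outside these windows. No window was at hand for CDKN1C.

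After MGH-CP1 all CIP/KIP genes rose, CDKN1C 1.77-fold, CDKN1A 1.38-fold and CDKN1B 1.17-fold. Of the INK4 genes, CDKN2C fell to 0.752 of its vehicle control level, and CDKN2D was not called with all libraries in the fit. CDKN2A and CDKN2B gave between them 1 fragment in all 4 libraries. A gene was called where its limma adjusted p was under 0.05. Of the 5 genes tested, 3 rose and 1 fell by this rule, against 27.1% higher and 23.8% lower among all 12080 genes tested, so that 50.8% of all genes were called in either direction. The groups did not overlap for 4 of the 5, against 77.2% of all genes tested. Change after MGH-CP1 was thus common in the whole transcriptome, and the number of CDK inhibitor genes called is to be read against these shares. In bulk RNA, fewer cells of one kind (a cell cycle stage, for example) and less RNA per cell cannot be told apart.

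**Figure D1:**
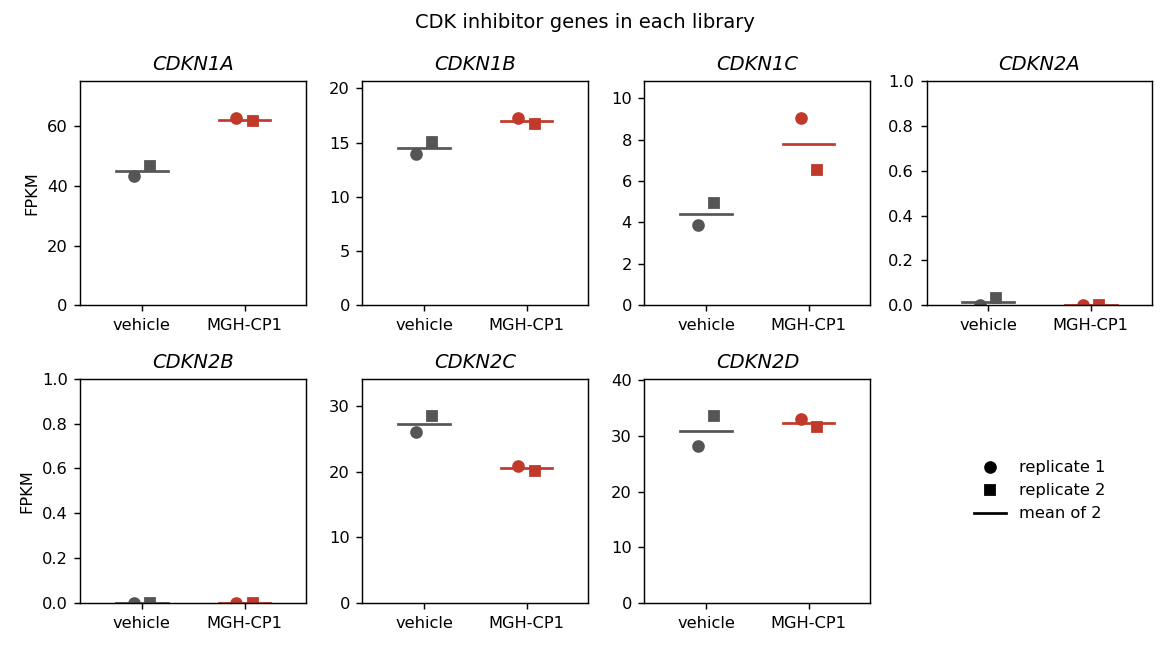
FPKM of the 7 CDK inhibitor genes in each library, 1 panel a gene, with vehicle control in grey, MGH-CP1 in red, circles for replicate 1, squares for replicate 2 and a line at the mean of 2 libraries; each vertical axis starts at 0. CDKN1A, CDKN1B and CDKN1C lie higher in both MGH-CP1 libraries, CDKN2C lies lower, CDKN2D overlaps, and CDKN2A and CDKN2B lie at or near 0.

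CDKN1A (ENSG00000124762, chr6:36644305-36655116 on the plus strand, hg19) encodes p21, which stops the cycle in response to DNA damage and other signals. Its FPKM was 43.3 and 46.7 in vehicle control and 62.6 and 61.9 in MGH-CP1, from 2460 to 2694 fragments per library. Each treated library exceeded each control library. The mean went from 45.0 ± 2.38 (SD, n = 2) to 62.3 ± 0.527 (SD, n = 2). On the log2(FPKM + 1) scale this was a rise of 0.46 (SE 0.05, 95% interval 0.34 to 0.58, limma adjusted p = 0.000298). CDKN1A was the most abundant CDK inhibitor RNA in both conditions, at the 90.1 percentile of level among the genes tested, and 12.1% of the genes tested rose by more. Leaving out each library in turn gave rises of 0.41 to 0.51 with a highest limma adjusted p of 0.00402.

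CDKN1B (ENSG00000111276, chr12:12867992-12875305 on the plus strand, hg19) encodes p27, a brake of CDK2 that accumulates in resting cells. Its FPKM was 13.9 and 15.0 in vehicle control and 17.2 and 16.7 in MGH-CP1, from 780 to 1020 fragments. The groups did not overlap, but the lower MGH-CP1 library lay close above the higher vehicle control library. The mean went from 14.5 ± 0.783 to 17.0 ± 0.376 (SD, n = 2 each), a rise of 0.21 on the log2(FPKM + 1) scale (SE 0.06, 95% interval 0.07 to 0.36, limma adjusted p = 0.0223). This was the smallest called change of the family. It was not called without MGH-CP1 replicate 1 (0.19, limma adjusted p = 0.107), without MGH-CP1 replicate 2 (0.24, adjusted p = 0.0569) or without vehicle control replicate 1 (0.16, adjusted p = 0.118). Of the genes tested, 28.5% rose by more.

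CDKN1C (ENSG00000129757, chr11:2904443-2907111 on the minus strand, hg19) encodes p57, an imprinted growth brake of development. Its FPKM was 3.85 and 4.95 in vehicle control and 9.02 and 6.52 in MGH-CP1. Each treated library exceeded each control library, and the 2 treated libraries differed from each other by more than the 2 controls did. It was the lowest of the 5 genes tested, with 201 to 333 fragments per library, and had the largest rise. The mean went from 4.40 ± 0.778 to 7.77 ± 1.77 (SD, n = 2 each), a rise of 0.69 on the log2(FPKM + 1) scale (SE 0.15, 95% interval 0.35 to 1.03, limma adjusted p = 0.00531). Only 5.47% of the genes tested rose by more. Leaving out each library in turn gave rises of 0.48 to 0.90, all called, with a highest limma adjusted p of 0.0309.

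CDKN2C (ENSG00000123080, chr1:51426417-51440305 on the plus strand, hg19) encodes p18, an INK4 inhibitor whose RNA is itself induced by E2F factors in cycling cells. Its FPKM was 26.0 and 28.5 in vehicle control and 20.8 and 20.2 in MGH-CP1, from 1029 to 2108 fragments. Each treated library was below each control library. The mean went from 27.2 ± 1.71 to 20.5 ± 0.466 (SD, n = 2 each), and the log2(FPKM + 1) value fell by 0.39 (SE 0.06, 95% interval -0.54 to -0.25, limma adjusted p = 0.0012). Of the genes tested, 10.1% fell by more. Leaving out each library in turn gave changes of -0.46 to -0.33, all called, with a highest limma adjusted p of 0.0102.

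CDKN2D (ENSG00000129355, chr19:10677138-10679735 on the minus strand, hg19) encodes p19, the other INK4 protein with RNA in these cells. Its FPKM was 28.2 and 33.6 in vehicle control and 32.9 and 31.6 in MGH-CP1, from 789 to 1217 fragments. The MGH-CP1 libraries lay between the vehicle control libraries. The mean was 30.9 ± 3.78 and 32.3 ± 0.972 (SD, n = 2 each), a difference of 0.07 on the log2(FPKM + 1) scale with a 95% interval of -0.12 to 0.25 (SE 0.08, limma adjusted p = 0.519). The control libraries decided this value, which was -0.06 without vehicle control replicate 1 (limma adjusted p = 0.539) and 0.19, past the threshold, without vehicle control replicate 2 (limma adjusted p = 0.0435).

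**Figure D2:**
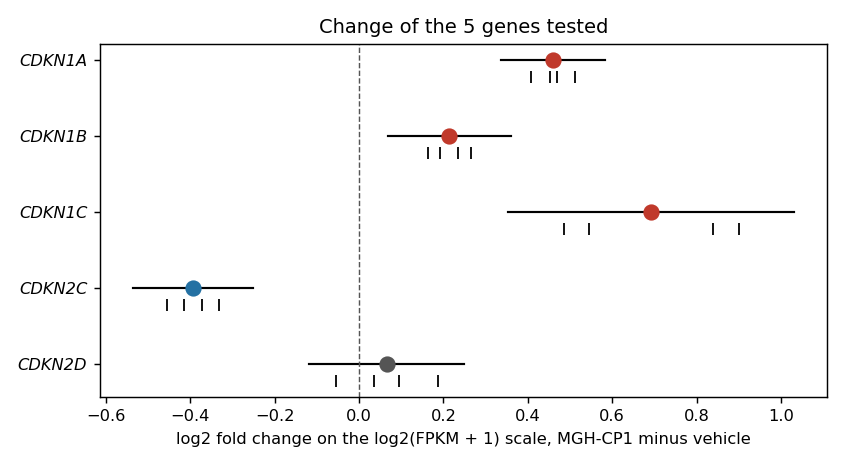
Log2 fold change on the log2(FPKM + 1) scale, MGH-CP1 minus vehicle control, of the 5 genes tested (points) with the 95% interval from limma (lines) and, as ticks below, the value with each of the 4 libraries left out. Red marks a called rise, blue a called fall and grey no call. The intervals of CDKN1A, CDKN1B and CDKN1C lie above 0, that of CDKN2C lies below 0, and that of CDKN2D spans 0.

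An exact two-sided permutation test of 2 libraries against 2 cannot go below 0.333, the value that CDKN1A, CDKN1B, CDKN1C and CDKN2C each gave (CDKN2D gave 1). The calls use a variance that limma pools over genes. None of the 4 calls was kept when each gene was tested on its own variance (adjusted p of 0.0733 to 0.199) or when all listed genes were fitted with no filter on low values (limma adjusted p of 0.0697 to 0.336).

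CDKN2A and CDKN2B were not detected as expressed genes. CDKN2A (ENSG00000147889, chr9:21967751-21995300 on the minus strand, hg19), which encodes p16 and, from another first exon and reading frame, the unrelated protein p14ARF, was at 0 in 3 libraries and at 0.0306 FPKM, 1 fragment, in vehicle control replicate 2. The table is per gene and does not separate the p16 and p14ARF transcripts. CDKN2B (ENSG00000147883, chr9:22002902-22009362 on the minus strand, hg19), which encodes the TGF-β-induced inhibitor p15, was at 0 in every library. At 95% confidence, and for counting error only, a count of 0 allows up to 3 fragments. That is 0.0919 to 0.133 FPKM in the 3 libraries where CDKN2A was at 0 and 0.0301 to 0.0436 FPKM for CDKN2B in all 4. No fold change was computed for either gene.

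The silence extended to the neighbours of these genes. Of the 17 listed genes within 500000 bases of CDKN2A or CDKN2B, themselves included, 16 were at 0 in all 4 libraries. CDKN2A held the single fragment of the whole window. Only 5 of the 15 neighbours were protein-coding, the others being pseudogenes and noncoding RNAs. Of all protein-coding genes listed, 21.3% were at 0 in all 4 libraries. Among the 15 neighbours were MTAP, which encodes the enzyme of methionine salvage that nearly every cell uses, the antisense RNA CDKN2B-AS1, the interferon gene IFNE, MIR31HG and the developmental factor DMRTA1, all at 0. CDKN2A and CDKN2B overlap CDKN2B-AS1 and a further listed gene on the opposite strand, both at 0, and no other CDK inhibitor gene overlaps a listed gene.

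The nearest genes above the filter, at a mean of 1 FPKM or more, were chosen after their values were seen. They were MLLT3 on the lower side, at a mean of 3.35 FPKM and ending at position 20622542, and TUSC1 on the upper side, at 5.37 FPKM and starting at position 25676396. Of the 60 listed genes in the 5.05 megabases between them, CDKN2A and CDKN2B included, 55 were at 0 in all libraries. Of the 27 protein-coding genes among the 60, 24 were at 0. The choice of these flanks puts every gene between them below 1 FPKM, so no share elsewhere is set beside this count. Interferon genes, which are silent in most unstimulated cells, were 16 of these 27. Of the other 11 protein-coding genes, which again include CDKN2A and CDKN2B, 8 were at 0, CDKN2B among them. FOCAD and KLHL9 were also named after their values were seen. FOCAD, next to MLLT3, was at 0.334 to 0.42 FPKM (45 to 56 fragments per library), and KLHL9 had 1 fragment in all. Both copies of the CDKN2A region are known to be lost in MDA-MB-231. DNA was not measured here, and the part of such a loss in these zeros was not tested.

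**Figure D3:**
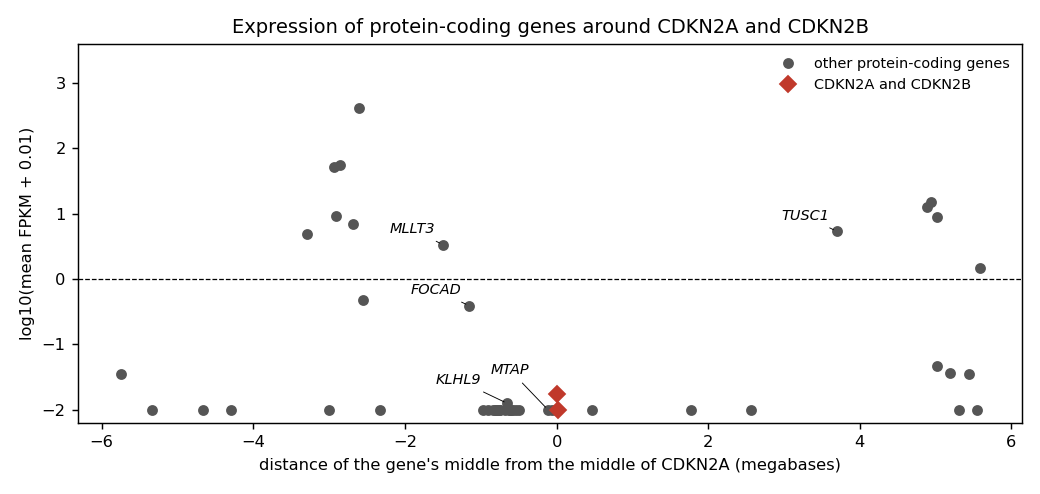
Log10 of the mean FPKM over the 4 libraries plus 0.01 for protein-coding genes on chromosome 9, against the distance of the middle of the gene from the middle of CDKN2A in megabases; red diamonds are CDKN2A and CDKN2B, and the dashed line is 1 FPKM. Genes at -2 were at 0 in all libraries. The genes between MLLT3 and TUSC1, MTAP included, lie at or near the bottom, except FOCAD, which lies higher but below the dashed line.

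The order of levels was the same in both conditions, CDKN1A first, then CDKN2D, CDKN2C, CDKN1B and CDKN1C, with CDKN2A and CDKN2B at or near 0. In vehicle control the ranges of CDKN2D and CDKN2C overlapped, and those of the other neighbours in the order did not. In MGH-CP1 no neighbours overlapped, the mean of CDKN2D being 1.57 times that of CDKN2C, against 1.13 times in vehicle control. CDKN1B came closer to CDKN2C, at 17.0 against 20.5 FPKM.

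CIP/KIP genes made up more of the CDK inhibitor RNA in both MGH-CP1 libraries than in either vehicle control library. Summed over the family, CIP/KIP RNA was 61.1 and 66.7 FPKM in vehicle control and 88.9 and 85.1 FPKM in MGH-CP1, a ratio of means of 1.36. INK4 RNA was 54.2 and 62.0 FPKM in vehicle control and 53.8 and 51.7 FPKM in MGH-CP1, a ratio of 0.907. CIP/KIP sums did not overlap between the groups, and the upper INK4 sum in MGH-CP1 was just below the lower one in vehicle control. CIP/KIP genes held 52.4% ± 0.830 of the summed FPKM in vehicle control and 62.3% ± 0.0810 in MGH-CP1 (SD, n = 2 each). The share of CDKN1A went from 36.9% to 44.6%, and that of CDKN2C from 22.3% to 14.7%. Within single libraries CDKN1A was 1.66 and 1.64 times CDKN2C in vehicle control and 3.01 and 3.07 times in MGH-CP1. These sums and shares follow from the members' own values and were given no test.

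**Figure D4:**
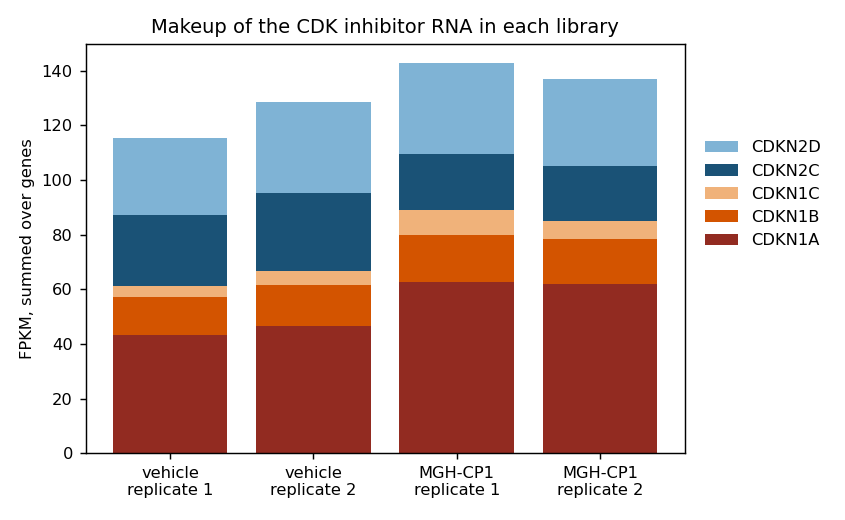
FPKM of the 5 expressed CDK inhibitor genes stacked for each of the 4 libraries, with CIP/KIP genes in reds and oranges and INK4 genes in blues; the vertical axis starts at 0. The stacks reach 115 and 129 FPKM in vehicle control and 143 and 137 FPKM in MGH-CP1, and the CDKN1A part grows while the CDKN2C part shrinks.

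Of 12 kinases and cyclins tested that the inhibitors bind, 11 fell (23.8% of all genes tested did) and CCND3 was not called, with a median log2 fold change of -0.51, against 0.01 over all genes tested. None rose in limma, also at an unadjusted p under 0.05 and with limma voom (0 each). CDK2, the main partner of the CIP/KIP proteins, was at 14.6 and 14.5 FPKM in vehicle control and 10.6 and 11.2 FPKM in MGH-CP1 and fell by 0.39 (SE 0.06, limma adjusted p = 0.00134). The ratio of CIP/KIP RNA to CDK2 RNA was 4.18 and 4.61 in vehicle control and 8.40 and 7.62 in MGH-CP1, so that it was higher in both treated libraries. CDK6 fell by 0.45 (limma adjusted p = 0.000702) and CDK4 by 0.27 (limma adjusted p = 0.0106, and 0.0658 without MGH-CP1 replicate 1). INK4 RNA over that of CDK4 and CDK6 together was 1.11 and 1.19 in vehicle control and 1.39 and 1.27 in MGH-CP1.

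CCNA2 and CDK1 had the 2 largest falls of this list. CCNA2, which activates CDK2 and CDK1, was at 86.5 and 83.5 FPKM in vehicle control and 39.1 and 41.6 FPKM in MGH-CP1 and fell by 1.06 (limma adjusted p = 1.5e-05). CDK1, the kinase of mitosis, fell by 0.83 (limma adjusted p = 4.02e-05). Of the E cyclins that pair with CDK2 at the entry into S phase, CCNE2 fell by 0.70 (limma adjusted p = 0.00125) and CCNE1 by 0.41 (limma adjusted p = 0.00792). Of the D cyclins, CCND1 was at 209 and 212 FPKM in vehicle control and 178 and 190.4 FPKM in MGH-CP1, and fell by 0.19 (limma adjusted p = 0.0138, but 0.114 without MGH-CP1 replicate 1 and 0.0567 without the trend). CCND3 was at 85.7 ± 0.927 and 85.5 ± 0.279 FPKM (SD, n = 2 each, limma adjusted p = 0.946), and CCND2, named after its value was seen, was too low to test at a mean of 0.137 FPKM.

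Downstream of these kinases, 8 of 13 pocket protein and E2F genes fell, 1 rose and 4 were not called, with a median of -0.25, against 27.1% higher and 23.8% lower of all genes tested. The repressor E2F8 fell by 0.96 (limma adjusted p = 5.37e-05) and RBL1, which encodes p107, by 0.63 (limma adjusted p = 0.000227). RB1 was at 28.6 and 25.4 FPKM in vehicle control and 22.1 and 22.8 FPKM in MGH-CP1 and fell by 0.25 (limma adjusted p = 0.0143). Its call was lost without MGH-CP1 replicate 1 (-0.23, limma adjusted p = 0.0754) and without vehicle control replicate 1 (-0.17, adjusted p = 0.0781). RBL2, which encodes the p130 protein of resting cells, was the gene that rose, by 0.24 (limma adjusted p = 0.0246), and it lost its call when any library other than vehicle control replicate 1 was left out (limma adjusted p of 0.0756 to 0.13).

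Among the genes for turnover of the CIP/KIP proteins, 8 of 14 tested fell, 1 rose and 5 were not called, with a median of -0.27, beside the same 23.8% lower and 27.1% higher overall. SKP2, the ligase subunit that marks p27 for destruction, was at 16.3 and 14.8 FPKM in vehicle control and 8.68 and 9.72 FPKM in MGH-CP1. It fell by 0.70 (SE 0.08, limma adjusted p = 0.000239), with both treated libraries below both controls. Its cofactor CKS1B fell by 0.56 (limma adjusted p = 0.000192), and DTL, the subunit that marks p21 for destruction in S phase, by 0.83 (limma adjusted p = 0.000124). RNF123, a subunit of the ligase that degrades p27 in early G1, rose by 0.44 (limma adjusted p = 0.00203).

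**Figure D5:**
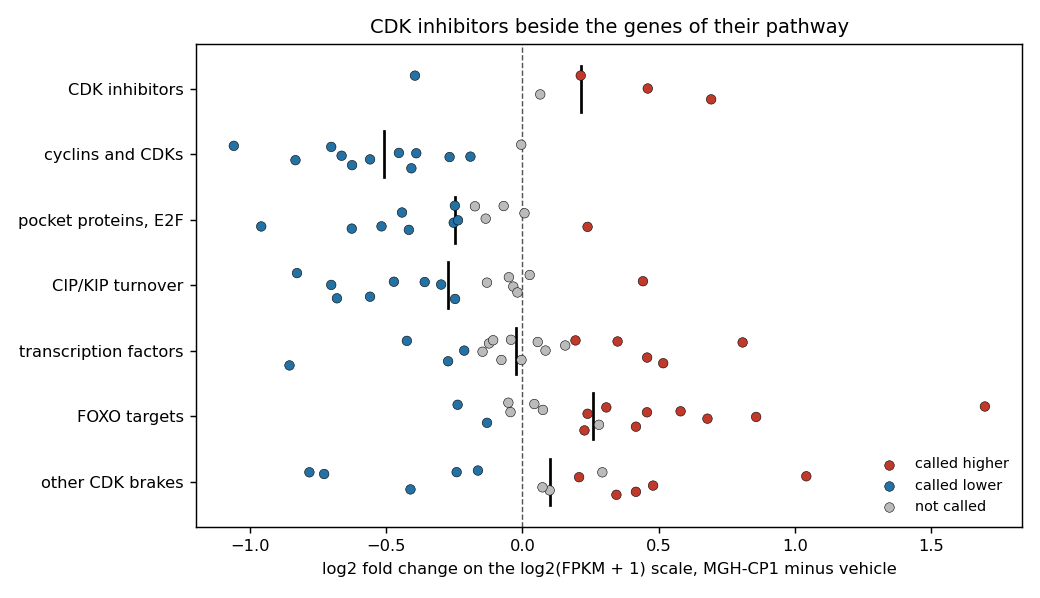
Log2 fold change on the log2(FPKM + 1) scale, MGH-CP1 minus vehicle control, of each gene tested in the family and in 6 lists of its pathway; points are genes, red called higher, blue called lower, grey not called, and black bars are medians. Cyclins and CDKs lie left of or at 0 (median -0.51), and the FOXO targets have the highest median of the lists (0.26).

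The transcription factors known to act on the CDK inhibitor genes were divided, with 5 higher, 4 lower and 9 not called of 18 tested and a median of -0.02. These are shares near the 27.1% higher and 23.8% lower of all genes tested. FOXO4, an activator of CDKN1B, was at 2.67 and 2.65 FPKM in vehicle control and 5.89 and 4.95 FPKM in MGH-CP1 and rose by 0.81 (limma adjusted p = 0.000376). KLF4, an activator of CDKN1A, rose by 0.52 (limma adjusted p = 0.000321). EZH2, the Polycomb methyltransferase that represses CDKN2A and CDKN1C in many cells, was at 30.5 and 30.0 FPKM in vehicle control and 15.9 and 16.7 FPKM in MGH-CP1 and fell by 0.85 (limma adjusted p = 2.79e-05). TP73, which encodes an activator of CDKN1A and CDKN1C, fell by 0.42 (limma adjusted p = 0.0135). MYC, a repressor of CDKN1A and CDKN2B, fell by 0.21 (limma adjusted p = 0.00966). Without MGH-CP1 replicate 1 the calls of MYC (limma adjusted p = 0.0636) and TP73 (adjusted p = 0.0559) were lost, the latter also without either vehicle control library (adjusted p = 0.0608 and 0.0667). Leaving out MGH-CP1 replicate 1 left 2 of these factors higher and 2 lower, and leaving out vehicle control replicate 1 left 3 higher.

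Of 16 FOXO targets tested other than CDKN1B, 9 rose, 2 fell and 5 were not called, with a median of 0.26, against 27.1% higher and 23.8% lower of all genes tested. PDK4, a brake of glucose oxidation, was at 1.51 and 1.49 FPKM in vehicle control and 7.49 and 6.71 FPKM in MGH-CP1 and rose by 1.70 (limma adjusted p = 1.91e-05). TRIB1, a pseudokinase gene, rose by 0.86 (limma adjusted p = 0.000167). BCL2L11, which encodes the death protein BIM, fell by 0.24 (limma adjusted p = 0.0353), and the thioredoxin partner TXNIP by 0.13 (limma adjusted p = 0.044). Both were near the threshold. BCL2L11 lost its call when any library other than MGH-CP1 replicate 2 was left out (limma adjusted p of 0.0983 to 0.183) and TXNIP when any of the 4 was (limma adjusted p of 0.0714 to 0.202). TXNIP was not called either with quantile normalization (0.0603), totals without mitochondrial genes (0.0695) or limma without the trend (0.124), all adjusted p values. RBL2 is also a member of the pocket protein list.

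Other genes listed as acting on CDKs or their partners went both ways. Not every product on this list is an inhibitor of a CDK. Of 13 genes, 5 were higher, 5 lower and 3 not called, with a median of 0.10. Among all genes tested 27.1% were higher and 23.8% lower. CDK5RAP3, which binds an activator of CDK5, was at 10.5 and 12.0 FPKM in vehicle control and 24.5 and 23.9 FPKM in MGH-CP1 and rose by 1.04 (limma adjusted p = 3.67e-05). CCNDBP1, which binds cyclin D, rose by 0.48 (limma adjusted p = 0.000632). CDKN3, a phosphatase of CDK2 and CDK1 that shares the name but not the fold of the CDK inhibitors, fell by 0.78 (limma adjusted p = 2.71e-05). PKMYT1, the kinase that silences CDK1 before mitosis, fell by 0.73 (limma adjusted p = 0.000355). Leaving out MGH-CP1 replicate 2 or vehicle control replicate 1 left 3 of these genes lower. Over all 6 lists, 20 of 85 genes tested were higher and 38 lower, against 27.1% and 23.8% of all genes, with a median of -0.12.

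The genes whose pattern was most like that of each CDK inhibitor gene were found by the distance between profiles of log2(FPKM + 1) over the 4 libraries, each centred on its own mean. KCTD18 (distance 0.015), KBTBD3 (0.0168) and RECQL5 (0.0192) were nearest to CDKN1A. ELFN2 (0.0179), DENND4B (0.018) and TRAPPC2L (0.0207) were nearest to CDKN1B, and MFI2-AS1 (0.0334), C11orf86 (0.0566) and NMB (0.103) to CDKN1C. G2E3 (0.0141), BZW1P2 (0.0181) and YRDC (0.0243) were nearest to CDKN2C, and ZXDB (0.0166), FAM171A2 (0.0272) and BBS4 (0.0281) to CDKN2D. Each distance rests on the same 4 libraries, whose depth differs between the treatments, so such likeness is a description of these libraries, and no CDK inhibitor gene was among the 3 nearest of another.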

How the data were processed

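Poly-T selected RNA of MDA-MB-231 cells was sequenced from 2 libraries per condition. Per the labels, the processing notes of the submitters name CASAVA 1.8, STAR and hg19, and the counting tool was not given in the sources used here. The authors deposited the values as FPKM, for 48162 genes. Multiplied by gene length, these values were whole multiples of the worth of 1 fragment in 100% of cases (tolerance 0.05 fragments), and 17577930 to 25508824 fragments per library were recovered. Columns were matched to samples by condition and replicate number, DMSO being the vehicle.

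Genes whose FPKM averaged 1 or more over all 4 libraries (12080) were compared between MGH-CP1 and vehicle control on the log2(FPKM + 1) scale. The test was two-sided, from limma (version 3.58.1, R version 4.3.3) with an intensity trend in eBayes, 5.97 prior and 2 residual degrees of freedom and no covariate. Adjustment was by Benjamini-Hochberg over all genes tested, at a threshold of 0.05. A fold change on this scale understates the change of low genes. The fit was also run on simulated data, in which far fewer genes were changed than were called here. That run therefore does not measure how accurate these calls are. The members and the 6 lists of 89 genes, of which 3 were matched by gene identifier, were chosen with earlier results of these data known, and lists were described by counts and medians only. A further planned list and a gene of another list are not reported here. Named are all 7 members, the called genes with the 2 largest rises and 2 largest falls of each list, direct partners (CDK2, CDK4, CDK6, CCND1, CCND3, CCNE1, CCNE2, SKP2, CKS1B, MYC and RB1), the 3 genes of most similar profile, and genes that overlap a member or lie within 500000 bases of CDKN2A or CDKN2B. Where another gene is named, the text says so.

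Alternatives changed the pseudocount (0.1), the filter (none, or an average of 5 FPKM), the scaling (median ratio, quantile, or totals without mitochondrial genes), the model (replicate block, no trend, no shared variance, or voom on recovered fragments) or the libraries, each being left out in turn. Python 3.11.15 with pandas 2.3.3, scipy 1.17.1 and matplotlib 3.10.9 served for the rest. Promoter windows came from RefSeq on GRCh38.p14 and were not compared with the hg19 coordinates of the table.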

Additional observations from a re-analysis of the deposited data

How the results depend on the processing

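The changes of CDKN1A, CDKN1B, CDKN1C and CDKN2C kept their direction under all 10 alternatives and when each library was left out. With no filter on low values, none of the 7 genes was called by limma (0 higher and 0 lower, against 2 higher and 1 lower at an unadjusted p under 0.05). The log2 fold changes were then as before, 0.46, 0.21, 0.69 and -0.39, with limma adjusted p of 0.0697, 0.213, 0.336 and 0.107, and CDKN1B kept a rise of 0.20 to 0.23 over the alternatives. In that fit 605 genes were called higher and 490 lower over the whole table, 4 and 8 of them in the lists. With no variance shared between genes, 0 of the 5 were called higher and 0 lower (1 and 1 at an unadjusted p), the fold changes again being 0.46, 0.21, 0.69 and -0.39 with adjusted p of 0.0733, 0.137, 0.199 and 0.0915. That test called 9 genes higher and 4 lower over the whole table and 0 higher and 0 lower in the lists (20 and 32 at an unadjusted p). Under the other 8 alternatives 3 members were called higher and 1 lower. Without single libraries CDKN1B ranged from 0.16 to 0.27 and CDKN2D from -0.06 to 0.19, CDKN2D changing sign without vehicle control replicate 1 (-0.056). No pairing of the libraries by the replicate numbers in the labels was seen (correlation of deviations 0.0777), but so few libraries cannot exclude it. With the replicate block 3 members were again called higher and 1 lower, so that this fit changed no member's call. Over the whole table it called 3466 genes higher and 3052 lower. Of the 5 members tested CDKN1C had the fewest fragments, 201 to 333 per library, and CDKN2A and CDKN2B had 0 to 1.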
